A study of Mus musculus with 28 samples.

Results

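The core circadian clock genes described here are Per1, Per2, Cry1, Cry2, Nr1d1, Nr1d2, Dbp, Nfil3, Clock and Rorb, 10 of the 21887 protein-coding mouse genes with a RefSeq position. They were chosen by name, with earlier results of these data known. For each acetyl mark the peaks of 12 libraries were merged wherever they overlapped by at least 1 base, and a gene took every merged region that reached its body or the 1 kb on either side. The members held 19 of 32703 H3K27ac regions and 15 of 20543 H3K9ac regions. All 10 genes had a region in both marks, and 9 of them, all but Rorb, had one with a peak in all 12 libraries of each mark.

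The study profiled acetylated histone H3 by ChIP-seq in mouse lung adenocarcinoma cells kept in culture. Sen cells are labelled wild-type and sensitive to PD-1 blockade. Res cells are labelled wild-type and resistant, and their labels add treatment with PD-1 inhibitors, agents that block an immune checkpoint receptor. Res_Ctrl and Res_shFabp7 are both labelled as resistant cells, the first with the genotype "Control" and the second with a short-hairpin knockdown of Fabp7, a fatty acid binding protein. Each group had 3 libraries per mark, called biological replicates in the labels. The labels give no sex or age, no number of clones, no harvest time and no synchronisation of the cultures. No RNA was measured in these files, so the knockdown itself was not checked.

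The mammalian clock is a transcriptional feedback loop. CLOCK, paired with BMAL1, binds E-box elements and activates the Per and Cry genes, whose proteins accumulate and repress that pair. A connected loop runs through the nuclear receptors REV-ERB-alpha and REV-ERB-beta (Nr1d1 and Nr1d2), which repress, and the ROR receptors such as RORB, which activate, through shared response elements. A further layer acts on D-box elements, which DBP activates and NFIL3 represses. H3K27ac marks active promoters and enhancers, and H3K9ac lies mostly at active promoters.

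Each library's list named between 11771 and 28934 peaks, which together contained from 2.24 M up to 11.5 M tags. The first Sen H3K27ac library was the smallest of its mark, with 15856 peaks against 23348 and 21407 in the other Sen libraries. The Res_shFabp7 H3K27ac lists, with 23131, 27107 and 28934 peaks, were longer than those of Res_Ctrl, with 21097, 19965 and 22982. In H3K9ac the Sen lists held 4.2, 10.2 and 11.5 M tags. Those of Res held 3.0 to 3.9 M, of Res_Ctrl 2.6 to 4.6 M and of Res_shFabp7 4.8 to 7.2 M. Peak calls and called stretches below were not adjusted for this difference, except where equal numbers of peaks are named. Of 8 epithelial marker genes 5 had a peak in all 12 libraries of each mark, as did 5 of 7 lung lineage genes, but Nkx2-1 had none. Of 9 immune genes 7 had no peak, Ptprc and Cd3e among them, and the other 2, Cd79a and Cd68, had one in all 12 libraries of each mark, and no fibroblast or endothelial marker had a peak in all 12 libraries. Levels below are scaled tags: the tags in a region's peaks, scaled by TMM and given per M tags in all tested regions of the library (M as above, the SI mega). A tested region had a peak in all 12 libraries of its mark (11679 for H3K27ac, 10149 for H3K9ac). The leading region of a gene is its tested region with the highest mean level. A change passed the test at an adjusted p under 0.05 in edgeR's quasi-likelihood test over all tested regions.

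Against Sen cells, Res cells carried more H3K27ac at Per1, Nfil3, Clock and Nr1d1 and less at Dbp: 4 of the 9 tested members rose and 1 fell. Of all tested regions 20.5% rose and 17.3% fell. The members' median log2 change was 0.27, against -0.01 over all regions. In H3K9ac, Nfil3 and Clock rose and Dbp and Cry2 fell, 2 members each way, where 29.0% of all regions rose and 26.6% fell. Per called base 5 members rose there and 0 fell, Cry2 among the 5, where 5517 of 10149 regions rose and 114 fell. Before that correction the members' H3K9ac median was -0.10, against -0.01.

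The comparison of Res_Ctrl with Res used 2 groups that are both labelled resistant. PD-1 inhibitors are named for the Res ChIP libraries and not for the Res input or the other resistant groups, so exposure and group cannot be told apart in any comparison with Res. In H3K27ac Per1, Per2, Nfil3 and Clock were lower in Res_Ctrl and Dbp was higher, 4 members lower (21.6% of all regions) and 1 higher (17.4%). In H3K9ac Per2, Nfil3 and Clock were lower (3 members, against 25.4% of regions) and Dbp and Nr1d1 higher (2 members, against 24.7%). Against Sen, Res_Ctrl was lower at Per2 in H3K27ac and at Per2 and Cry1 in H3K9ac, 1 and 2 members where 11.1% and 16.4% of regions fell. No member rose there in either mark, where 11.4% and 19.2% of all regions rose. Per called base, H3K9ac instead rose at 3 members, Clock, Nr1d1 and Per1, and fell at 0, where 4102 of 10149 regions rose and 26 fell. These 3 comparisons share libraries: Sen, Res and Res_Ctrl each enter 2 of them.

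The knockdown changed few tested members. None of the 9 members tested in all 12 libraries passed in H3K27ac when Res_shFabp7 was compared with Res_Ctrl, where 0.437% of all regions rose and 1.02% fell. Rorb, tested only in fits of 6 libraries, is described below. At an unadjusted p under 0.05 the count was 1, Nr1d2, and DESeq2 called 0 members at its adjusted threshold. With the replicate number as a block, which pairs these libraries, 581 regions were called in place of 170, and still none of the members. In H3K9ac Per2 and Cry1 rose, 2 members where 2.61% of regions rose, and none fell where 4.71% fell. Nr1d1 was called lower here only under other settings, given below. This comparison shares the Res_Ctrl libraries with the pair above.

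**Figure D1:**
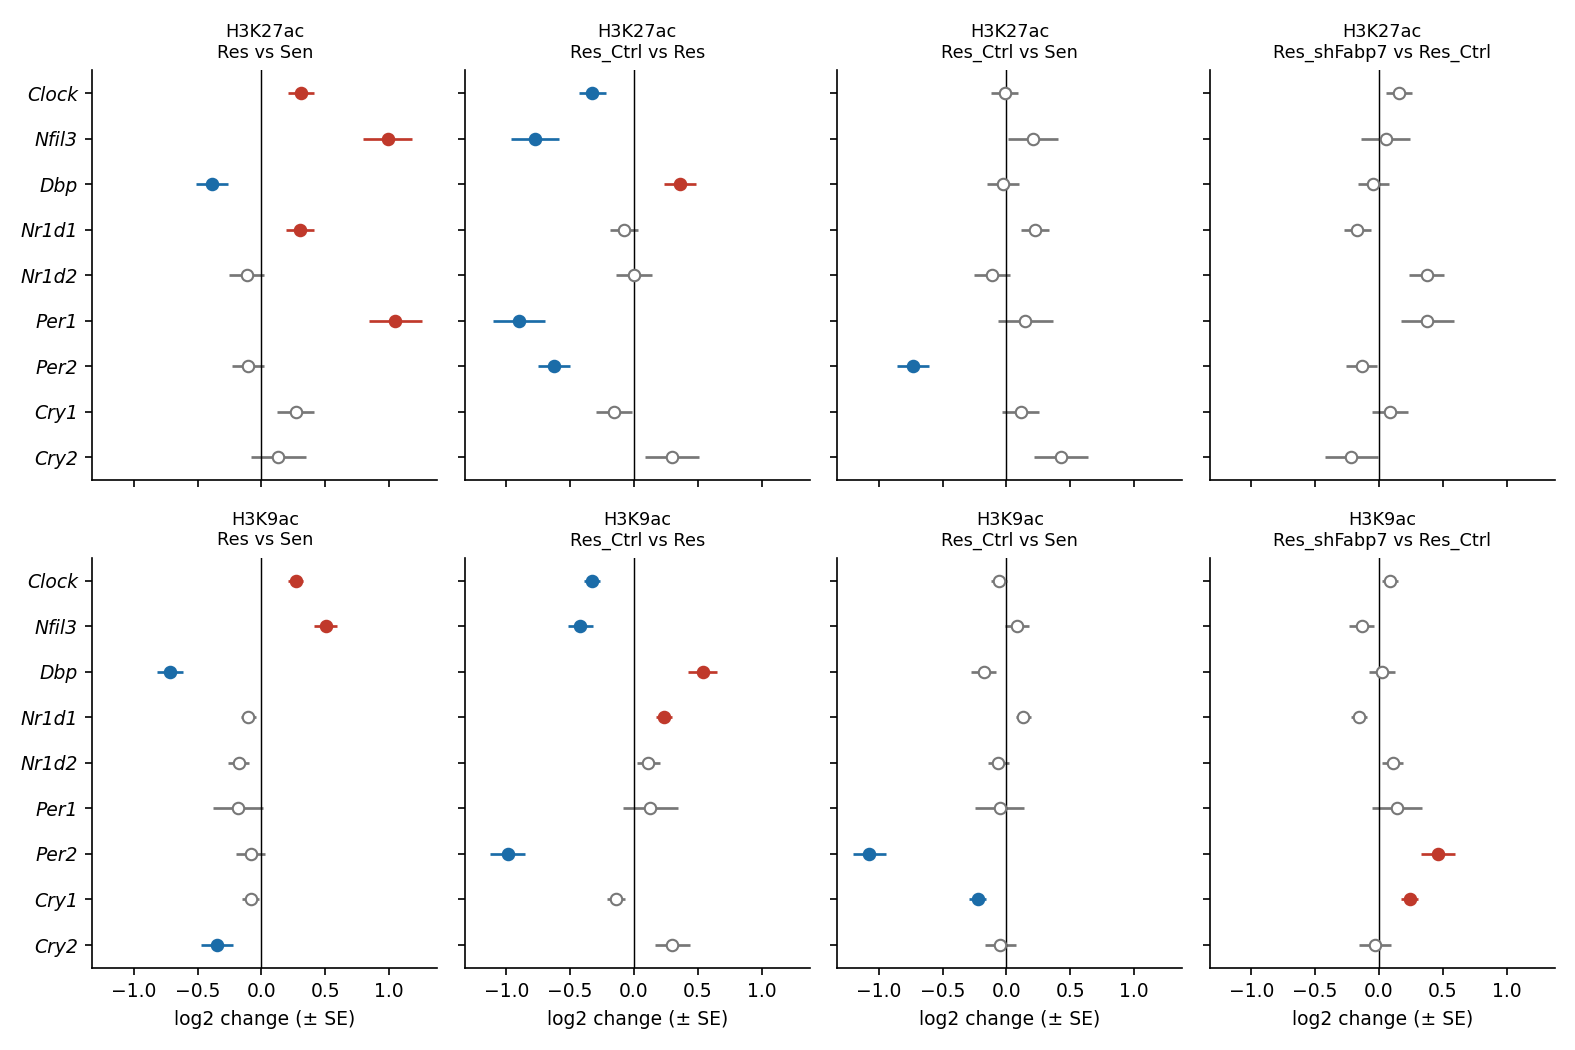
Fitted log2 change (x axis, with SE) in the leading region of 9 clock genes (y axis), for H3K27ac (top) and H3K9ac (bottom) and 4 comparisons. Filled red points are higher and filled blue points lower at an adjusted p under 0.05; open points did not pass. Nfil3 and Dbp lie on opposite sides of 0 in the 2 comparisons that involve Res, and Per2 lies furthest left in both marks of Res_Ctrl against Sen.

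Clock, which encodes the activator of the loop, had a high density of both marks. Its leading H3K27ac region, chr5:76302549-76308011 at the gene's start, averaged 29.8 scaled tags per called kb, above 91.5% of tested regions, and its H3K9ac region 47.9, above 94.1%. In H3K27ac Clock stood at 122, 116 and 118 scaled tags in Sen, 158, 148 and 136 in Res, 100, 128 and 125 in Res_Ctrl and 133, 125 and 135 in Res_shFabp7. The H3K9ac level was 172, 166 and 174 in Sen, 213, 197 and 206 in Res, 148, 176 and 164 in Res_Ctrl and 168, 170 and 183 in Res_shFabp7. In both marks every Res library was above every library of Sen, Res_Ctrl and Res_shFabp7, while those 3 groups overlapped or lay close together.

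The H3K9ac rise at Clock in Res over Sen was 0.27 ± 0.06 on the log2 scale (SE, 3 libraries a group, adjusted p = 0.0011), a 1.20-fold difference. The fall from Res to Res_Ctrl was -0.33 ± 0.07 (adjusted p = 0.00042). For H3K27ac the same 2 changes were 0.31 ± 0.10 (adjusted p = 0.031) and -0.33 ± 0.10 (adjusted p = 0.024). Regions in the 5 Mb window around Clock moved too: their median change from Sen to Res was 0.28 in H3K27ac and 0.23 in H3K9ac. With the window medians removed, the Res against Sen changes at Clock were -0.01 and 0.03, those from Res to Res_Ctrl 0.03 and -0.10 (H3K27ac, then H3K9ac), and none passed. The H3K27ac rise was also lost when any one of Sen 2, Sen 3, Res 1 or Res 2 was left out, and the fall when Res 1, Res 2 or Res_Ctrl 1 was.

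Rorb, the gene of an activating ROR receptor, had no region with a peak in all 12 libraries of either mark. Most of its peaks fell at the start of the gene on chromosome 19 or far inside it, near the 3′ end. At the start, chr19:19108674-19112333, the H3K27ac peak was called in 1 Sen, 3 Res, 0 Res_Ctrl and 3 Res_shFabp7 libraries. Its level was 20.7 in Sen 2, 57.8, 51.1 and 37.5 in Res, and 21.2, 16.8 and 13.8 in Res_shFabp7. The H3K9ac peak, chr19:19109180-19112109, was called in 3 Sen, 3 Res, 0 Res_Ctrl and 3 Res_shFabp7 libraries. Levels were 22.2, 29.1 and 28.5 in Sen, 59.1, 57.0 and 61.0 in Res and 23.4, 27.3 and 24.0 in Res_shFabp7. Res was the highest group in both marks without overlap, and Res_Ctrl was the one group with no call in either mark.

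The window from the Rorb start is shown because the merged start regions of both marks cover it, though some single calls end inside it. RefSeq (GRCm38.p6, the mm10 build) places the 250 bases before the start at chr19:19111197-19111446 on the minus strand. Capitals mark GGGCGG, the GC box bound by SP-family factors, read on either strand. Bases run 5′ to 3′.
Rorb: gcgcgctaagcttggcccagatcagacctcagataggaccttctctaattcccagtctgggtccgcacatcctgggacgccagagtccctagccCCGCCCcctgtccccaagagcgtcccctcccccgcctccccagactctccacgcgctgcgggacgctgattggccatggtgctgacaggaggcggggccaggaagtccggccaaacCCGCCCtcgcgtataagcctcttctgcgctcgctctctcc

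A missing call has no deposited count, so it is described here by presence. A setting that puts such calls at the calling floor stands with the alternatives. Of regions with a peak in either group, 5.24% had H3K27ac calls in all 3 Res and none of the Res_Ctrl libraries, as the Rorb start did, and 2.01% in H3K9ac. The gain from 0 Res_Ctrl to 3 Res_shFabp7 libraries was shared by 3.95% of H3K27ac and 4.86% of H3K9ac regions. The loss from 3 Sen to 0 Res_Ctrl libraries in H3K9ac was shared by 4.96%. These calls were not deep: 87, 88 and 103 H3K27ac tags in Res_shFabp7, where the lists are longer. At a peak score of at least 100 (p of 1e-10) the H3K27ac call stood in 2 of 3 Res_shFabp7 libraries. With equal numbers of peaks per library it stood in 3 Res libraries and in no other group, and the same held for H3K9ac.

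Of the 4 comparisons, Res against Sen could be tested at the Rorb start in H3K9ac, since the peak was called in all 6 Sen and Res libraries. A fit of those 6 libraries, in which 28.1% of 11158 regions rose, gave 59.0 scaled tags in Res and 26.6 in Sen. The change was 1.11 ± 0.12 (SE, 3 libraries a group, edgeR adjusted p = 1.9e-05), or 2.16-fold. Leaving out each library in turn, a check chosen after seeing the data, gave 1.03 to 1.18, past the threshold each time. The called stretch grew less, from 1.90 to 2.45 kb, and the density rose from 14.2 to 24.4 scaled tags per called kb. Among H3K9ac regions tested in all 12 libraries, 5517 of 10149 rose per called base from Sen to Res and 114 fell.

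The internal Rorb region moved in another order. Its H3K27ac peak, chr19:18937905-18944882, was called in 1 Sen library and in all 9 libraries of the resistant groups. At the stricter score and with equal numbers of peaks, the 3 calls of Res_Ctrl and of Res_shFabp7 stood and 0 of those of Res did. It stood at 41.5 in Sen 2, 29.2, 24.7 and 24.1 in Res, 54.2, 52.6 and 58.6 in Res_Ctrl and 112, 127 and 112 in Res_shFabp7. The 3 resistant groups did not overlap: Res was lowest, Res_Ctrl intermediate and Res_shFabp7 highest. This order is unlike that at the start of the gene, where Res was highest and Res_Ctrl had no call.

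In the fit of the 6 libraries of the knockdown comparison, in which 1.44% of 16069 regions rose, the internal region rose by 1.101 ± 0.108 (SE, 3 libraries a group, edgeR adjusted p = 0.00074), or 2.15-fold. The change was 1.03 to 1.13 without any one library, and 1.097 with the replicate block (adjusted p = 0.0018), in checks added after seeing the data. The called stretch widened from 3.29 to 6.21 kb, while the density went from 16.8 to 18.9 scaled tags per called kb. Per called base the change was 0.19 (adjusted p = 0.19). In the fit of all 12 libraries with absent peaks set at the calling floor, this rise after knockdown was not called. From Res to Res_Ctrl the rise was 1.098 ± 0.156 (adjusted p = 0.00043), where 16.9% of 13684 regions rose. Per called base it was 0.37 (adjusted p = 0.078), as the stretch widened from 1.99 to 3.29 kb.

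H3K9ac at the internal Rorb region, chr19:18939858-18942685, was called in the 3 Res_shFabp7 libraries and in none of the other 9. Its level there was 31.2, 31.7 and 35.5, from 128, 187 and 176 tags. All 3 calls stood at the stricter score and none stood with equal numbers of peaks per library. A further H3K27ac region of Rorb, chr19:19100390-19102482, was called in Res 1 and Res 3.

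**Figure D2:**
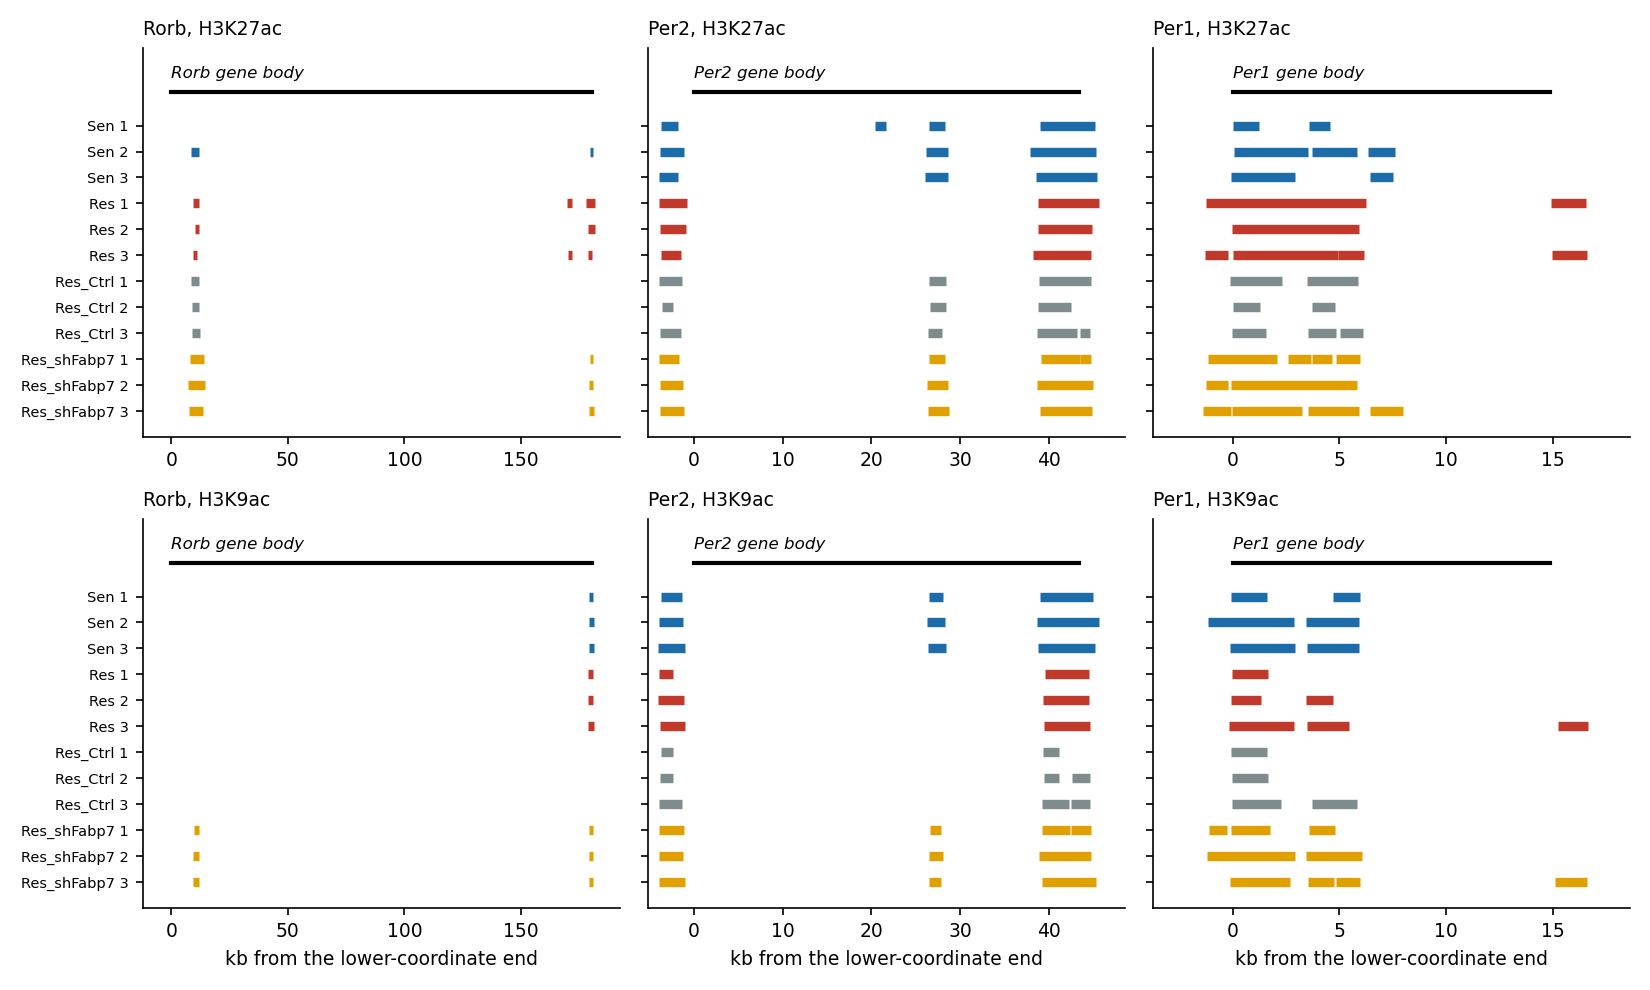
Called peaks (bars) along Rorb, Per2 and Per1 in each of 12 libraries per mark (y axis, coloured by group); the x axis is the distance in kb from the end of the gene with the lower coordinate, and the black line is the gene body. The Rorb start is on the right, where the 3 Res_Ctrl rows are empty in both marks. The Per2 panel shows internal bars missing from Res. In the Per1 panel the longest H3K27ac bar of each Res library is longer than those of Sen and Res_Ctrl, and Res_shFabp7 2 also has a long bar.

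**Figure D3:**
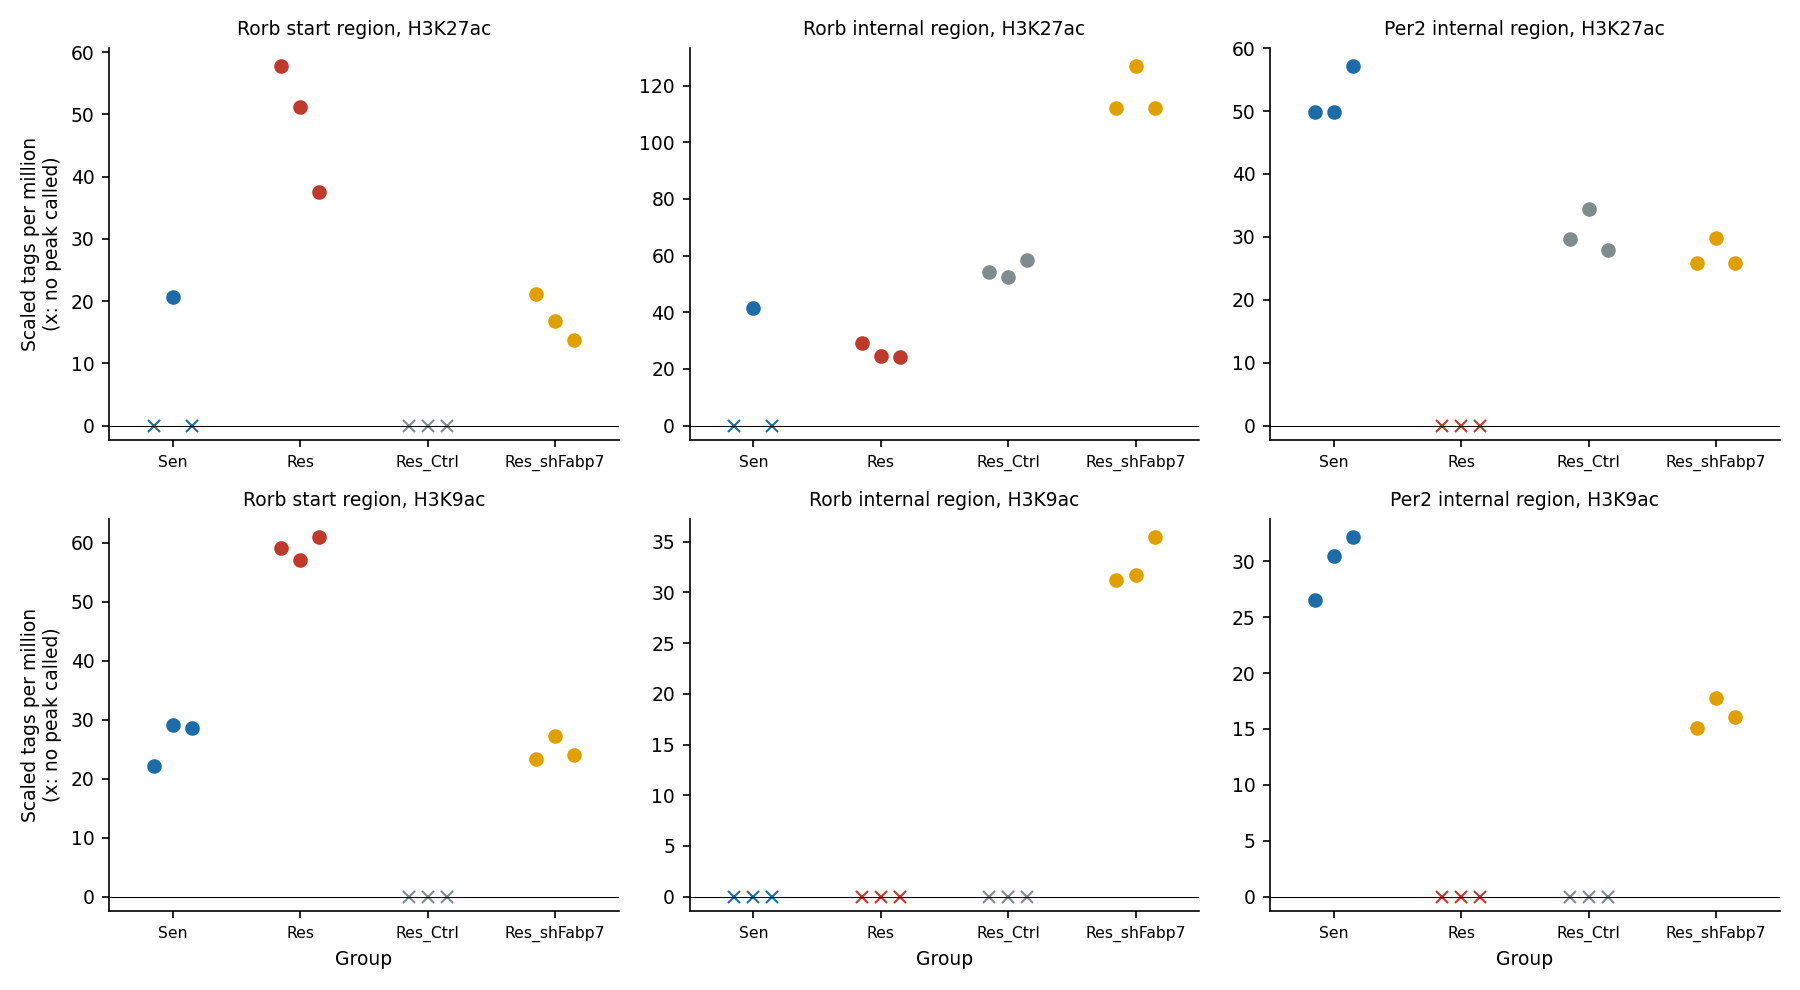
Scaled tags per M tags (y axis) in each library of 4 groups (x axis) for the Rorb start, the Rorb internal region and the Per2 internal region, with H3K27ac on top and H3K9ac below; crosses on the 0 line are libraries with no call, not measured zeros. Rorb reads highest in Res at its start and highest in Res_shFabp7 inside the gene, and the Per2 region reads highest in Sen.

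Nfil3 and Dbp act on the same D-box elements, NFIL3 as repressor and DBP as activator. The leading H3K27ac region of Nfil3, chr13:52975898-52983309, stood at 54.5, 89.4 and 72.6 scaled tags in Sen, 131, 135 and 170 in Res, 107, 85.1 and 62.3 in Res_Ctrl and 81.1, 89.1 and 93.3 in Res_shFabp7. In H3K9ac Nfil3 read 126, 134 and 127 in Sen, 159, 168 and 221 in Res, 147, 133 and 134 in Res_Ctrl and 119, 131 and 124 in Res_shFabp7. Every Res library was above all 9 others in each mark, and the other 3 groups overlapped one another in H3K27ac.

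Nfil3 rose from Sen to Res by 0.99 ± 0.19 in H3K27ac (SE, 3 libraries a group, adjusted p = 0.0012, 1.98-fold) and by 0.50 ± 0.09 in H3K9ac (adjusted p = 0.00013, 1.42-fold). The change from Res to Res_Ctrl was -0.78 ± 0.19 in H3K27ac (adjusted p = 0.0054) and -0.42 ± 0.10 in H3K9ac (adjusted p = 0.0015). The H3K27ac change went with a longer called stretch, 6.54 kb in Res against 3.93 kb in Sen and 4.67 kb in Res_Ctrl, and per called base it was 0.25 with no call. The H3K9ac stretch was 5.35 kb in Sen and 5.48 kb in Res, and the density went from 24.2 to 33.2 scaled tags per called kb. Such density rises were common: per called base 5517 of 10149 H3K9ac regions rose from Sen to Res and 114 fell. The H3K9ac rise at Nfil3 passed under every alternative run, with 0.34 to 0.59 when one library was left out. Regions of chromosome 13 had a median change of -0.09 in H3K27ac and -0.12 in H3K9ac.

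The Nfil3 start lay within the region called in all 24 libraries. Its start window of 300 bases (250 before the start and 50 after) is described for its composition: it held 81.7% G and C, more than 99.3% of 21263 windows, and 9 matches to GGGCGG. It was also the one member window with TAGGTCA, a half-site form of the response element shared by REV-ERB and ROR receptors. The match began 12 bases before the start, and 2.32% of all windows held one. The 250 bases before the start are chr13:52981040-52981289, minus strand, RefSeq GRCm38.p6. Capitals mark GGGCGG and TAGGTCA on either strand.
Nfil3: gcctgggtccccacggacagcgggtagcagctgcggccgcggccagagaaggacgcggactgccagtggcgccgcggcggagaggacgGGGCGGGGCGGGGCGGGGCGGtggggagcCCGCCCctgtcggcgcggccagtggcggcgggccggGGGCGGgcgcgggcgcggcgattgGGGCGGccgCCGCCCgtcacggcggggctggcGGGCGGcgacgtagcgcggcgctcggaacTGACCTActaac

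Dbp moved the opposite way. Its region, chr7:45703438-45709180 in H3K27ac, also reached the neighbours Car11 and Sphk2, so the tags cannot be assigned to Dbp alone. H3K9ac at Dbp was 134, 131 and 122 in Sen, 80.7, 58.8 and 94.9 in Res, 111, 115 and 115 in Res_Ctrl and 123, 110 and 115 in Res_shFabp7. H3K27ac was 88.5, 108 and 118 in Sen, 87.2, 85.4 and 68.5 in Res, 109, 99.5 and 102 in Res_Ctrl and 109, 101 and 92.4 in Res_shFabp7. All 3 Res libraries were below all 9 others in both marks.

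H3K9ac at Dbp changed by -0.72 ± 0.11 from Sen to Res (SE, 3 libraries a group, adjusted p = 1.9e-05, 1.64-fold) and by 0.54 ± 0.12 from Res to Res_Ctrl (adjusted p = 0.00085). The H3K27ac changes were smaller, -0.39 ± 0.13 (adjusted p = 0.026) and 0.36 ± 0.13 (adjusted p = 0.034). The H3K9ac stretch was 5.43 kb in Sen and 3.73 kb in Res, with densities of 23.8 and 21.0, and per called base the fall was -0.18 with no call. The H3K27ac fall was lost without Sen 2, Sen 3 or Res 3, and the rise to Res_Ctrl without Res 3, Res_Ctrl 1 or Res_Ctrl 3. With chromosome medians removed both H3K27ac changes were smaller and not called, at -0.21 and 0.13.

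The Dbp window is set beside that of Nfil3 because their calls ran in opposite directions. Its 300 bases held 60.3% G and C and 1 match to GGGCGG, and neither TAGGTCA nor the E-box CACGTG. The sequence is chr7:45704997-45705246, plus strand, RefSeq GRCm38.p6, with GGGCGG on either strand in capitals.
Dbp: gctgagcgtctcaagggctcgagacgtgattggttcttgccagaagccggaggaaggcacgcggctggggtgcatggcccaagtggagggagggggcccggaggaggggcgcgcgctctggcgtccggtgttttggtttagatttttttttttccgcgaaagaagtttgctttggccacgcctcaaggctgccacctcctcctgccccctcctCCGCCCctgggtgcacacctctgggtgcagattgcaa

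**Figure D4:**
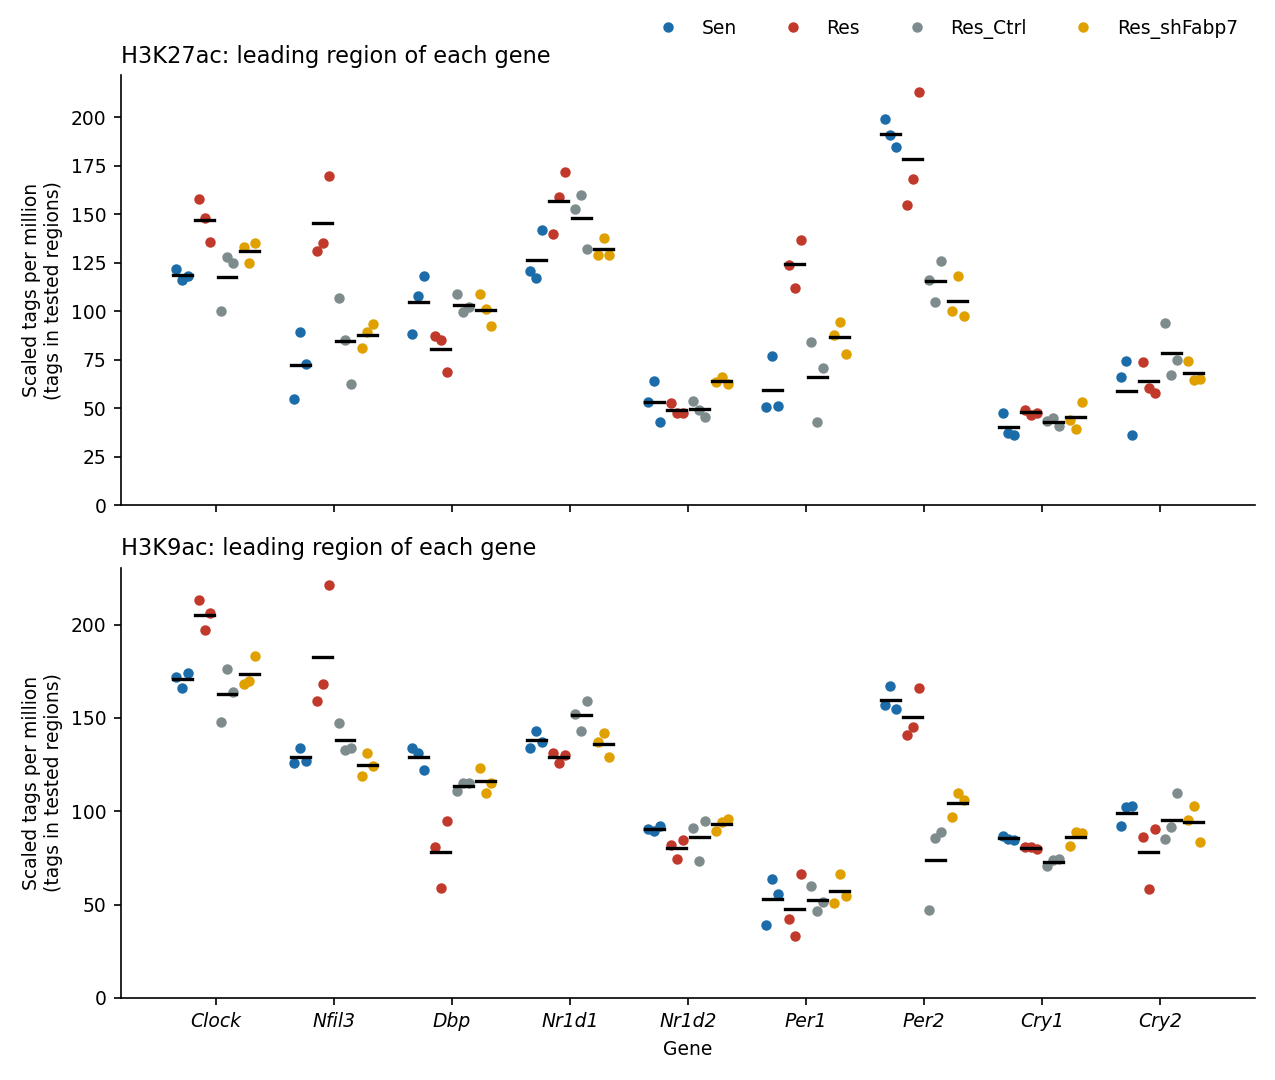
Scaled tags per M tags (y axis) in the leading region of 9 clock genes (x axis), one point per library coloured by group, with the group mean as a bar; H3K27ac is on top and H3K9ac below. Res stands above the other groups at Clock and Nfil3 and below them at Dbp in both marks, and at Per1 it stands above in H3K27ac, where its 3 libraries read 112 to 137.

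The REV-ERB genes moved little. Nr1d1, at chr11:98771686-98778619, read 121, 117 and 142 in Sen, 140, 159 and 172 in Res, 153, 160 and 132 in Res_Ctrl and 129, 138 and 129 in Res_shFabp7 for H3K27ac. For H3K9ac it read 134, 143 and 137 in Sen, 131, 126 and 130 in Res, 152, 143 and 159 in Res_Ctrl and 137, 142 and 129 in Res_shFabp7. Sen and Res overlapped in H3K27ac, and in H3K9ac Res lay below Sen and Res_Ctrl without overlap.

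The H3K27ac rise at Nr1d1 from Sen to Res was 0.30 ± 0.11 (SE, 3 libraries a group, adjusted p = 0.042), and the H3K9ac level in Res_Ctrl was above that in Res by 0.23 ± 0.06 (adjusted p = 0.0049). Nr1d1 lies on chromosome 11, whose H3K27ac regions had a median change of 0.41 from Sen to Res, and its H3K9ac regions 0.35. With the chromosome medians removed, the Res against Sen change at Nr1d1 was -0.09 in H3K27ac, no longer called, and -0.45 in H3K9ac (adjusted p = 6.3e-06), where -0.10 had not been. Leaving out Sen 1, Sen 2, Res 2 or Res 3 also ended the H3K27ac call. After knockdown H3K9ac at Nr1d1 lay below Res_Ctrl without overlap, but the change of -0.16 ± 0.06 did not pass (adjusted p = 0.11). It was called lower in edgeR fits with total tags (-0.25, adjusted p = 0.027) and with stricter peaks (-0.21, adjusted p = 0.034). Per called base it was also called lower (-0.33, adjusted p = 0.019).

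Nr1d2, at chr14:18236874-18240392, read 53.1, 64.2 and 43.0 in Sen, 52.6, 47.7 and 47.6 in Res, 53.7, 48.9 and 45.5 in Res_Ctrl and 63.6, 66.0 and 62.6 in Res_shFabp7 for H3K27ac. The knockdown libraries were above all Res_Ctrl libraries, by 0.37 ± 0.14, but the change did not pass (adjusted p = 0.21). In H3K9ac Nr1d2 averaged 90.6 ± 1.3 in Sen and 80.2 ± 5.3 in Res, with no overlap between them, against 86.3 ± 11.4 in Res_Ctrl and 93.2 ± 3.2 in Res_shFabp7 (SD, n = 3). No comparison passed in the main fit of all 12 libraries. In H3K9ac the 6-library fit called Res lower than Sen (-0.19, edgeR adjusted p = 0.038). So did the edgeR fit with window medians removed (-0.245, adjusted p = 0.019), but per called base Res was called higher (0.247, adjusted p = 0.04).

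Per1, a repressor gene that the activator pair induces through E-boxes, passed the test in H3K27ac. Its leading H3K27ac region, chr11:69093722-69101359, read 50.7, 76.7 and 51.1 in Sen, 124, 112 and 137 in Res, 84.4, 43.1 and 70.9 in Res_Ctrl and 87.7, 94.7 and 77.9 in Res_shFabp7. The 3 Res libraries were above the 9 others, while Sen and Res_Ctrl overlapped. Res exceeded Sen by 1.05 ± 0.21 (SE, 3 libraries a group, adjusted p = 0.0014, 2.07-fold), and the change from Res to Res_Ctrl was -0.90 ± 0.21 (adjusted p = 0.0036). Called stretches were 3.61 kb in Sen, 6.90 kb in Res and 3.70 kb in Res_Ctrl, with densities of 17.9, 18.1 and 18.0 scaled tags per called kb. In Res_shFabp7 the stretch was 6.76 kb, close to that of Res, at a density of 12.9. Per called base neither change involving Res was called (0.09 and -0.01). Per1 too lies on chromosome 11, and with chromosome medians removed it rose by 0.65 (adjusted p = 0.03), while the fall to Res_Ctrl was -0.51 (adjusted p = 0.083).

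H3K9ac over Per1 was split in 2. The leading region, chr11:69093932-69098031, read 39.2, 63.7 and 55.5 in Sen, 42.5, 33.3 and 66.5 in Res, 59.7, 46.6 and 51.4 in Res_Ctrl and 50.9, 66.4 and 54.6 in Res_shFabp7. All 4 groups overlapped, and Res against Sen was -0.18 ± 0.20 (adjusted p = 0.44). Without Res 3 it was -0.53 (adjusted p = 0.023), with chromosome medians removed -0.53 (adjusted p = 0.042), and per called base 0.37 (adjusted p = 0.0057), so the call and its direction turned on the setting. Whether the 2 marks differ in their change was not tested. The next region, chr11:69098537-69101156, was called in 3 Sen, 2 Res, 1 Res_Ctrl and 3 Res_shFabp7 libraries. At the stricter score its calls stood in 3 Sen, 0 Res, 1 Res_Ctrl and 1 Res_shFabp7 libraries, and with equal numbers of peaks in none.

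That second H3K9ac region covers both RefSeq start windows of Per1. The first is shown for its E-box, CACGTG, which begins 166 bases before the start. Among the members with a start window, all but Per2, Cry1 was the other with CACGTG, 60 bases before its start. Of all windows 7.84% held it. The sequence is chr11:69098699-69098948, plus strand, GRCm38.p6, with CACGTG and GGGCGG in capitals.
Per1: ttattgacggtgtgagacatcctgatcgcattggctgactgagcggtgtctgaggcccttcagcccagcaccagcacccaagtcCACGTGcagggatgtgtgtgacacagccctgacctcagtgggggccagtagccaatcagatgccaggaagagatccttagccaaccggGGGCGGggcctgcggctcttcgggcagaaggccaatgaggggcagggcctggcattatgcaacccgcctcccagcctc

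Per2, the other period gene, carried less of both marks in Res_Ctrl than in Sen or Res. Its leading H3K27ac region, chr1:91453835-91461571 at the upper end of the gene, read 199, 191 and 185 in Sen, 155, 168 and 213 in Res, 116, 105 and 126 in Res_Ctrl and 100, 118 and 97.7 in Res_shFabp7. H3K9ac at chr1:91454605-91461557 read 157, 167 and 155 in Sen, 141, 145 and 166 in Res, 47.0, 85.9 and 89.0 in Res_Ctrl and 96.9, 110 and 106 in Res_shFabp7. Sen and Res overlapped in both marks and lay above all 6 libraries of Res_Ctrl and Res_shFabp7.

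From Sen to Res_Ctrl the change at Per2 was -0.73 ± 0.13 in H3K27ac (SE, 3 libraries a group, adjusted p = 0.001, 1.66-fold) and -1.07 ± 0.13 in H3K9ac (adjusted p = 4e-06, 2.11-fold). From Res to Res_Ctrl it was -0.62 ± 0.12 in H3K27ac (adjusted p = 0.0014) and -0.99 ± 0.14 in H3K9ac (adjusted p = 1.4e-05). The H3K9ac stretch was 6.43 kb in Sen, 5.15 kb in Res and 3.51 kb in Res_Ctrl, with densities of 24.9, 29.2 and 22.6. Per called base the 2 changes against Sen were -0.27 and -0.20 with no call, whereas H3K9ac against Res was -0.44 and still passed. Chromosome 1 had a median H3K27ac change of -0.44 from Res to Res_Ctrl, and with it removed Per2 was at -0.22 with no call.

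Knockdown cells carried more H3K9ac at Per2 than Res_Ctrl, by 0.46 ± 0.14 (SE, 3 libraries a group, adjusted p = 0.047, 1.38-fold), and every Res_shFabp7 library was above every Res_Ctrl library. The call was lost without Res_Ctrl 1, whose level of 47.0 was the lowest (change 0.26), and without Res_Ctrl 2 or any one Res_shFabp7 library. Called stretches were 3.51 kb in Res_Ctrl and 5.70 kb in Res_shFabp7, and densities 22.6 and 18.3, so per called base the change was -0.23. H3K27ac at Per2 did not pass in this comparison, with means of 116 and 105.

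Inside Per2, an H3K27ac region at chr1:91441980-91444658 was called in 3 Sen, 0 Res, 3 Res_Ctrl and 3 Res_shFabp7 libraries. It read 49.8, 49.9 and 57.2 in Sen, 29.6, 34.5 and 27.9 in Res_Ctrl and 25.8, 29.8 and 25.9 in Res_shFabp7. H3K9ac there, chr1:91442239-91444416, was called in 3 Sen, 0 Res, 0 Res_Ctrl and 3 Res_shFabp7 libraries, at 26.5, 30.5 and 32.2 in Sen and 15.1, 17.8 and 16.1 in Res_shFabp7. Sen was the highest group in both marks, and Res had no call in either.

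The loss from 3 Sen to 0 Res libraries was shared by 3.35% of H3K27ac regions and 11.9% of H3K9ac regions. The H3K27ac gain from Res to Res_Ctrl was shared by 5.56%. The H3K9ac loss from Sen to Res_Ctrl and gain from Res_Ctrl to Res_shFabp7 were the pattern that Rorb also showed at its start. The H3K27ac calls stood at the stricter score, and with equal numbers of peaks they stood in 3 Sen, 0 Res, 3 Res_Ctrl and 2 Res_shFabp7 libraries. The H3K9ac calls were weaker: with the stricter score they stood in 3 Sen and 1 Res_shFabp7 libraries, and with equal numbers in 2 Sen libraries.

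In the 6-library fit of Sen and Res_Ctrl, the internal H3K27ac region of Per2 was lower in Res_Ctrl, with a change of -0.75 ± 0.16 (SE, 3 libraries a group, edgeR adjusted p = 0.012, 1.68-fold), where 7.51% of 12855 regions fell. In checks chosen after seeing the data it was lost without Sen 3 (adjusted p = 0.056), without Res_Ctrl 3 (adjusted p = 0.055), and with chromosome medians removed (-0.54, adjusted p = 0.07). Between Res_shFabp7 and Res_Ctrl it did not pass, at -0.16 ± 0.18 (adjusted p = 0.69).

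A region beyond the lower end of Per2, chr1:91411951-91414994 in H3K9ac, touches only the 1 kb margin of the gene and also reaches Hes6. In H3K9ac it read 55.2, 58.0 and 61.1 in Sen, 50.8, 79.8 and 70.6 in Res, 33.4, 45.9 and 53.7 in Res_Ctrl and 57.9, 56.7 and 57.6 in Res_shFabp7. Res_Ctrl was lower than Res, with a change of -0.58 ± 0.15 (SE, 3 libraries a group, adjusted p = 0.0044), though one Res library, at 50.8, lay within the range of Res_Ctrl.

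The cryptochrome genes, partners of the period proteins in repression, moved by 1.35-fold or less in every comparison of either mark. Cry1, chr10:85183020-85186511 in H3K9ac, read 86.6, 85.1 and 84.7 in Sen, 80.7, 81.0 and 79.5 in Res, 70.4, 73.7 and 74.4 in Res_Ctrl and 81.3, 88.7 and 88.5 in Res_shFabp7. The libraries of each group lay close together, and Res_Ctrl was below all 9 others. The change from Sen to Res_Ctrl was -0.23 ± 0.07 (SE, 3 libraries a group, adjusted p = 0.013, 1.17-fold), and that from Res_Ctrl to Res_shFabp7 was 0.24 ± 0.07 (adjusted p = 0.038, 1.18-fold). The call after knockdown was lost without any one Res_Ctrl library, without Res_shFabp7 2 or 3, and in DESeq2 (adjusted p = 0.11), and the call against Sen with total tags as the scale (-0.17) or window medians removed (-0.16). Per called base the 2 differences were 0.11 and -0.09, as the called stretch was 3.31 kb in Sen, 2.60 kb in Res_Ctrl and 3.27 kb in Res_shFabp7. H3K27ac at Cry1 had group means from 40.3 to 47.8 and passed in none of the 4 comparisons. From Sen to Res it was 0.27 (adjusted p = 0.16), but 0.45 with chromosome medians removed (adjusted p = 0.031) and 0.38 without Sen 1 (adjusted p = 0.048).

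Cry2, chr2:92430281-92435250 in H3K9ac, read 92.0, 102 and 103 in Sen, 86.1, 58.5 and 90.5 in Res, 84.9, 91.5 and 110 in Res_Ctrl and 95.4, 103 and 83.6 in Res_shFabp7. Res lay below Sen without overlap, with a change of -0.35 ± 0.12 (SE, 3 libraries a group, adjusted p = 0.024, 1.27-fold), with Res 2 far below the other 2. Without Res 2 the change was -0.17 and was not called, and the call was also lost without Sen 2 (-0.33) or Sen 3 (-0.32). The called stretch was 4.43 kb in Sen and 2.98 kb in Res, and per called base the change was 0.25. H3K27ac at Cry2 passed in no comparison, with group means between 58.8 (Sen) and 78.5 (Res_Ctrl).

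Among 35 other clock genes, 25 had a tested H3K27ac region and 28 a tested H3K9ac region. From Sen to Res, 2 rose and 3 fell in H3K27ac. Fbxw11, a substrate receptor of the ubiquitin ligase that targets PER proteins, rose by 0.49 ± 0.09 (adjusted p = 0.0008), and the corepressor gene Ncor1, a partner of REV-ERB proteins, by 0.32 ± 0.10 (adjusted p = 0.024). Per3, Timeless and Bhlhe41 fell, with changes of -0.43, -0.33 and -0.28 (adjusted p = 0.035, 0.035 and 0.04). Of all tested regions 20.5% rose and 17.3% fell. The regions of Per3, Timeless and Ncor1 also reach Gm38529, Mip and Pigl. Fbxw11 and Ncor1 lie on chromosome 11, whose median change is given above.

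In H3K9ac 4 of the 28 other genes rose from Sen to Res and 5 fell, beside 29.0% and 26.6% of all regions. Fbxw11 (0.45 ± 0.05, adjusted p = 2.1e-06) and Ncor1 (0.33 ± 0.05, adjusted p = 2.8e-05) led the rises, with Creb1 and Gsk3b at 0.14 each. Nono, whose product binds PER proteins, changed by -0.75 ± 0.09 (adjusted p = 2.7e-06), and among the other falls Kdm5a, Hdac3 and Tef had changes between -0.29 and -0.23. The Kdm5a and Hdac3 regions also reach Ccdc77 and Diaph1. The median change of the other clock genes was -0.11 in H3K27ac and -0.04 in H3K9ac.

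After knockdown, none of the 25 other genes passed in H3K27ac, where 0.437% of all regions rose and 1.02% fell. In H3K9ac 1 of 28 passed, where 4.71% of regions fell. It was Prkaa2, which encodes a catalytic subunit of AMPK, a kinase that phosphorylates cryptochromes, at -0.66 ± 0.11 (SE, 3 libraries a group, adjusted p = 0.0019). From Res to Res_Ctrl 2 rose and 8 fell in H3K27ac (17.4% and 21.6% of all regions), and 6 rose and 8 fell in H3K9ac (24.7% and 25.4%). From Sen to Res_Ctrl 0 rose and 6 fell in H3K27ac (11.4% and 11.1%), and 4 rose and 10 fell in H3K9ac (19.2% and 16.4%).

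Across the 12 libraries of a mark, the genes whose leading region followed a member most closely were named by Pearson's r, as a description over libraries that share 4 groups. In H3K27ac the nearest to Per1 was Dlx1 (r = 0.94), to Per2 Retreg1 (r = 0.96), to Nfil3 Usp36 (r = 0.94) and Sox9 (r = 0.93) after D17H6S53E (r = 0.95), and to Dbp BC048403 (r = 0.94). In H3K9ac Prkce was nearest to Nfil3 (r = 0.96) and Sec23ip to Dbp (r = 0.96). Between members, the highest r was 0.80 in H3K27ac (Nfil3 and Per1) and 0.81 in H3K9ac (Cry2 and Dbp). The lowest was -0.68 in H3K27ac (Cry1 and Dbp) and -0.78 in H3K9ac (Clock and Nr1d1).

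RefSeq gave 13 start windows for 9 members, each reaching from 250 bases before to 50 after a start. Per2 had no window in this set, so its start was not searched. GGGCGG was in 10 of the 13 and in 46.2% of all 21263 windows. TGGGTCA (3.56% of windows), the cyclic AMP element TGACGTCA (2.23%) and the D-box forms TTATGTAA (0.894%), TTACGTAA (0.136%) and TTGCGTAA (0.202%) were in none of the 13. Both strands were searched, and no match means only that these letters are not in this window.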

How the data were processed

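The 24 libraries and the 4 inputs, whose values were not used, come from one study. Per the submitters' processing notes, reads were aligned with Bowtie 1.1.2 to mm10 and peaks called with MACS 1.4.2. Whether inputs served as control is not given in the sources used here. The deposited lists give each peak's tag count, its score (the caller's scaled negative log10 p, at least 50.0) and its fold enrichment, all set by the authors' calls, 1 list per library. Here peaks were merged per mark and tags summed per region. Counts were fitted with edgeR 4.0.16 (R 4.3.3, limma 3.58.1) in one model of 4 groups, TMM scaling and Benjamini-Hochberg adjustment. SE is the log2 change divided by the root of F. Scripts were tested on simulated data: 40% of 1.5-fold and 88% of 2-fold H3K27ac changes (Res against Sen, 11679 regions) were recovered, and 90% and 100% in H3K9ac (10149 regions).

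The members and gene lists were chosen with earlier results of these data known. The text names all members, the other clock genes that passed in Res against Sen or Res_shFabp7 against Res_Ctrl (1 of these is not reported here), and the genes most alike to a member by Pearson's r. Replicate numbers were checked: same-numbered H3K27ac libraries deviated together in Res_shFabp7 and Res_Ctrl (r from 0.19 to 0.42) and in Res_Ctrl and Res (0.10 to 0.38), so the block is given there. Alternatives were DESeq2 1.42.0, other scaling, density per called base, chromosome or window medians removed, stricter peaks, 6-library fits and leaving out each library.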

Additional observations from a re-analysis of the deposited data

How the results depend on the processing

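For counts of clock genes called, H3K27ac Res against Sen gave 5. It gave 3 with total tags in peaks, 0 per called base, 3 with chromosome medians removed, 2 in the 6-library fit, and 2 to 5 with one library left out. H3K27ac Res_Ctrl against Res gave 5, then 0 per called base, 2 with chromosome medians removed, 2 with 5 Mb window medians removed, and 3 to 5 with one library left out. H3K27ac Res_Ctrl against Sen gave 1, then 0 per called base and 2 with absent peaks set at the calling floor. H3K27ac Res_shFabp7 against Res_Ctrl gave 0, then 2 per called base (Per1 and Per2, both lower) and 1 in the 6-library fit (the internal Rorb region, higher). Per called base 1846 of 11679 regions were lower there and 0 higher. H3K9ac Res_shFabp7 against Res_Ctrl gave 2, Cry1 and Per2, both higher. Per called base it gave 4 (Clock, Nfil3, Nr1d1 and Per1, all lower), where 3178 of 10149 regions were lower and 2 higher. With total tags it gave 2 (Per2 higher, Nr1d1 lower), where 1129 regions were lower and 117 higher. With stricter peaks it gave 3 (Cry1 and Per2 higher, Nr1d1 lower), where 464 regions were lower and 214 higher. It gave 1 with DESeq2, 0 with chromosome or window medians removed, 0 in the 6-library fit, 1 at the calling floor, and 0 to 1 with one library left out. The replicate block, in a comparison where the numbers did not pair the libraries (r from -0.044 to 0.043), gave 1 there, with Cry1 at adjusted p = 0.052. H3K9ac Res_Ctrl against Res gave 5, then 1 per called base, and H3K9ac Res_Ctrl against Sen 2 lower, then 1 with window medians removed, 3 higher and 0 lower per called base, and 1 each way with total tags (Nr1d1 higher). At the calling floor the Rorb start was called higher in Res than in Sen in H3K9ac, and lower in Res_Ctrl than in Res or Sen. In H3K27ac the Rorb region taken was the internal one, called higher in Res_Ctrl than in Res or Sen. Between Res_shFabp7 and Res_Ctrl, Rorb was called in neither mark at this floor. With the replicate block no other member count changed.

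Counts of all regions called moved as well. For H3K27ac Res against Sen, 4412 became 817 per called base, 2794 with window medians removed and 9897 at the calling floor. For H3K27ac Res_Ctrl against Res, 4547 became 757, 2779 and 9733 under the same 3 settings. For H3K27ac Res_Ctrl against Sen, 2628 became 125 per called base, 1127 with chromosome medians removed, 960 with window medians removed and 4573 at the floor. For H3K27ac Res_shFabp7 against Res_Ctrl, 170 became 431 with DESeq2, 335 with total tags, 1846 per called base, 61 and 49 with chromosome and window medians removed, 615 in the 6-library fit, 711 at the floor, 111 with stricter peaks, 581 with the replicate block and 21 to 87 with one library left out. For H3K9ac Res against Sen, 5645 became 3761 and 3344 with chromosome and window medians removed and 9019 at the floor. For H3K9ac Res_shFabp7 against Res_Ctrl, 743 became 1246 with total tags, 3180 per called base, 430 and 321 with chromosome and window medians removed, and 313 to 782 with one library left out. For H3K9ac Res_Ctrl against Res, 5079 became 1757 per called base and 3228 with window medians removed. For H3K9ac Res_Ctrl against Sen, 3616 became 2003 and 1837 with chromosome and window medians removed and 5874 at the floor.

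Scaling to total tags moved the median of all H3K27ac regions in Res against Sen from -0.01 to -0.11 and the rising share of calls from 54.2% to 40.2%. In the H3K27ac knockdown comparison that share, 51 of 170 calls, went to 15.5%, and in the H3K9ac one from 35.7% to 9.4%. In H3K9ac it went from 52.1% to 64.9% in Res against Sen and from 53.9% to 67.5% in Res_Ctrl against Sen. Per called base the H3K9ac medians were 0.27 in Res against Sen, 0.21 in Res_Ctrl against Sen and -0.21 after knockdown, with 98.0%, 99.4% and 0.1% of calls rising. In H3K27ac the rising share was 19.8% in Res against Sen, 0.0% after knockdown, 76.0% in Res_Ctrl against Res and 35.2% in Res_Ctrl against Sen. For H3K9ac Res_Ctrl against Res it was 31.5%, and with window medians removed the H3K27ac share there was 55.9% against 44.6%.

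Some genes changed sign. In H3K27ac Nr1d1 in Res against Sen was -0.089 with chromosome and -0.15 with window medians removed, and in Res_Ctrl against Res 0.32 with chromosome medians removed. Clock with window medians removed was -0.006 in Res against Sen and 0.025 in Res_Ctrl against Res. Per called base, H3K27ac at Per1 after knockdown was -0.49. In H3K9ac per called base, Per1, Cry2 and Nr1d2 in Res against Sen were 0.37, 0.25 and 0.25. After knockdown Per1, Per2, Cry1 and Clock were -0.62, -0.23, -0.085 and -0.27. In Res_Ctrl against Sen Per1, Cry1 and Clock were 0.61, 0.11 and 0.30. Beyond these values and the construction of each setting the cause was not tested.

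The lists hold called peaks alone, so a region without a call has no count. Per called base every H3K27ac call of a clock gene ended, as did the H3K9ac calls of Dbp in Res against Sen, of Nr1d1, Dbp, Nfil3 and Clock in Res_Ctrl against Res, and of Per2 and Cry1 in the comparisons of Res_Ctrl with Sen and with Res_shFabp7. The 3 libraries a group limit the precision, and in H3K27ac a 1.5-fold change was recovered in fewer than all simulated regions.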
